A study of Mus musculus with 16 samples.

Results

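The Hedgehog pathway genes examined here are 7 genes of the mouse, taken by their symbols after Ensembl identifiers were matched to gene names: the ligand Ihh, the receptor Ptch1, the ligand-binding antagonist Hhip, the signal transducer Smo, and the transcription factors Gli1, Gli2 and Gli3. All 7 were among the 29629 genes of the single-cell table and among the 47729 genes of the bulk table. The single cells were ScxGFP induced pluripotent stem cells (iPSCs), derived from fibroblasts of transgenic mice that carry a green fluorescent reporter of Scx, the transcription factor of the tendon lineage. They were taken as induced mesodermal cells at T0, and after 3, 6 and 9 days in 10 ng/ml recombinant human TGF-β2 (T3, T6 and T9), on 3 plates of 384 wells per time point. The bulk libraries were Achilles tendons of 2-week-old Scx-homoKO mice, homozygous for a knockout of Scx, and of Scx-Wt littermates, with 2 mice in each group.

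According to the methods of the study, the mesodermal cells had been induced with CHIR, a Wnt agonist, together with cyclopamine, an inhibitor of Smo, and both were withdrawn before TGF-β2 was added. All 4 time points therefore share a period of Hedgehog inhibition, and each later time point was also longer after its withdrawal. There were no cells at T3 to T9 without TGF-β2, so the days in TGF-β2, the days in culture and the days after cyclopamine cannot be told apart.

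In the absence of a Hedgehog ligand, Ptch1 holds Smo inactive and Gli3 is cleaved to a repressor. Ligand binding to Ptch1 and its co-receptors releases Smo at the primary cilium, full-length Gli2 and Gli3 act as activators, and transcription of Gli1, Ptch1 and Hhip increases, so that these genes serve as readouts of the pathway. In the tendon, Gli1-expressing cells are best known at the enthesis, the attachment to bone, where they form mineralizing fibrocartilage.

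In total 4594 wells with at least 200 detected genes were used, with 1921125 to 4657093 unique molecular identifiers (UMIs) per plate, and the median UMIs per cell were 10175 at T0, with 5703, 8794 and 7900 at the later time points in order. Each UMI stands for one captured 3' end, so levels in CPM (UMI counts scaled to the same total in every library) can be compared between genes without a correction for length. All 3 T0 plates belonged to the 7 plates with the larger share of reads without a feature, and the other time points had plates of both kinds, so this difference between libraries is given beside the results that it moves with. The 8 tenocyte markers summed to 435 to 516 CPM in the T0 plates and to 13106 to 39540 CPM in the T9 plates. Bulk libraries held 11188270 to 12398560 counts.

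Gli3 was by far the most abundant member at T0 and fell to 0.286 of its T0 level by T9, with Gli2 following later (the plot of the 7 genes in each plate). Gli3, on chromosome 13 at 15463235 to 15730026 (GRCm38), had 202, 253 and 225 CPM in the 3 plates of T0. The plates of T3 had 84.8, 101 and 76.7 CPM, those of T6 had 113, 59.2 and 116 CPM, and those of T9 had 32.0, 32.8 and 81.6 CPM. Every T0 plate was above every later plate, and the third plate of T9 lay apart from the other 2.

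The fall of Gli3 from T0 to T3 had a log2 fold change of -1.15 (SE 0.24, adjusted p = 0.00228). It was the only member of the 4 tested that passed the threshold at this step, where 33.2% of all tested genes passed. From T0 to T9 the log2 fold change was -1.80 (SE 0.24, adjusted p = 4.24e-05). Among the plates in which more reads lacked a feature, the levels were 202 to 253 CPM at T0, 101 CPM at T3, 113 to 116 CPM at T6 and 81.6 CPM at T9, so T0 was highest and T9 lowest within these plates too. Between T6 and T9 the log2 fold change of -0.78 (SE 0.24) missed the threshold (adjusted p = 0.126). It passed without a filter on low counts (-0.80, adjusted p = 0.0253), when the kind of library was a covariate (-0.65, adjusted p = 0.0381, with 5.62% of genes called), and when the third plate of T9 (-1.11) or the second plate of T6 (-0.94) was left out.

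**Figure D1:**
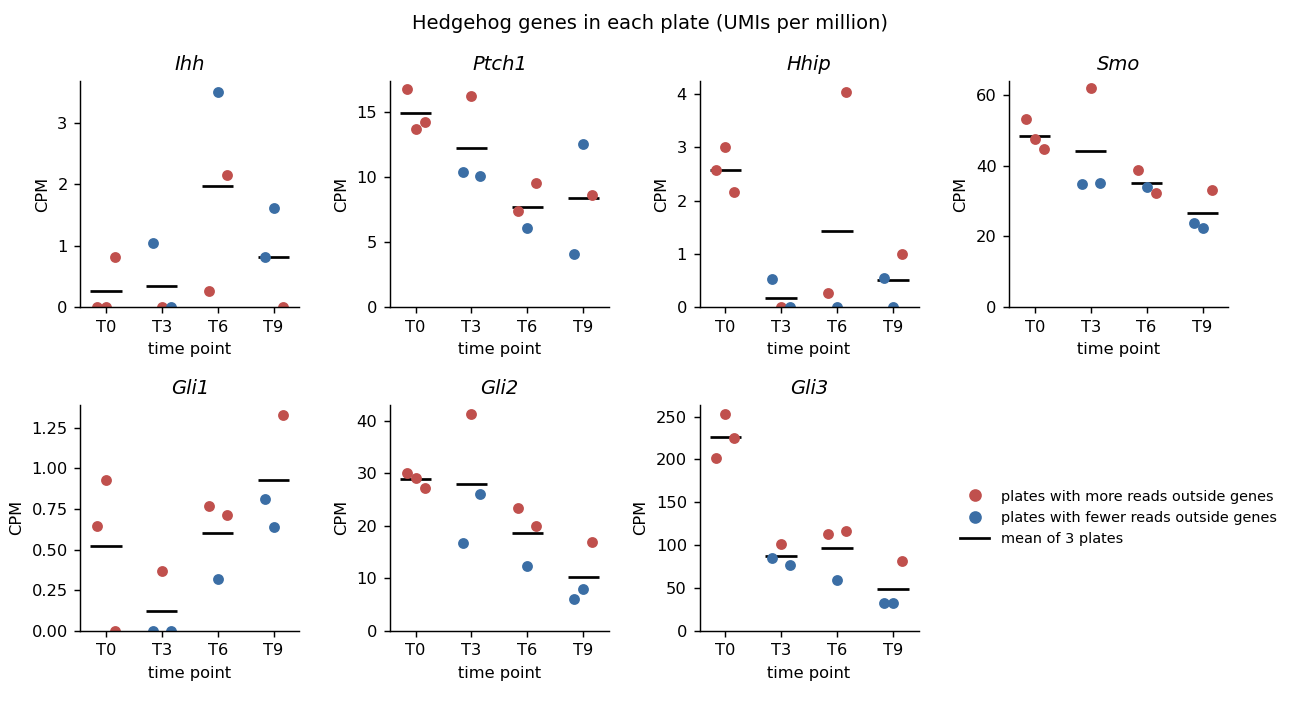
Levels of the 7 Hedgehog genes as CPM (UMIs scaled to the plate's total, a separate linear axis for each gene) at the 4 time points; each point is a plate, coloured by its share of reads without a feature, and the bars are means of 3 plates. Gli3 lay at 202 to 253 CPM at T0 and at 32.0 to 81.6 CPM at T9, while Gli1 did not exceed 1.33 CPM in any plate.

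The share of cells with a Gli3 UMI changed in the same order. At T0, 74.8% ± 1.96 (SD, n = 3) of cells held at least 1 Gli3 UMI, against 23.6% ± 7.27 at T9. After each cell was thinned to 3000 UMIs, which removes the difference in depth and leaves out cells below it (4301 cells remained), the share was 44.0% ± 2.95 at T0, then 17.0% ± 2.77 at T3 and 23.1% ± 8.00 at T6, and it was lowest at T9 with 13.0% ± 5.78.

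Gli2, the main activator of the family, kept its level longer. It lies on chromosome 1 at 118834132 to 119053619. Its levels were 30.1, 29.2 and 27.2 CPM at T0, 16.7, 41.3 and 26.1 CPM at T3, 23.3, 12.4 and 19.98 CPM at T6, and 5.98, 8.03 and 16.9 CPM at T9. The T3 plates spread on both sides of T0, and all T9 plates were below all T0 plates.

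From T0 to T9, Gli2 fell with a log2 fold change of -1.06 (SE 0.28, adjusted p = 0.00646). Gli2 and Gli3 were the 2 of 4 tested members that passed in this comparison, in which 45.2% of all tested genes passed. No member passed from T3 to T6 (4.24% of genes called) or from T6 to T9 (1.62%). With the kind of library as a covariate Gli2 passed from T3 to T6 as well (log2 fold change -0.76, adjusted p = 0.0212, with 10.5% of genes called). In thinned cells, those with UMIs of both Gli2 and Gli3 made up 3.92% of cells at T0 and 0.27% at T9, and those with neither 51.8% and 84.7%.

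To show the promoters of these genes, the RefSeq sequences of 250 bases before to 50 bases after the start (GRCm38.p6) were searched on both strands for the binding sequence of the Gli proteins, GACCACCCA. Of the 7 members 6 had an entry, and Gli1 was without one. None of the 6 held the 9 letters exactly or with 1 mismatch, while 0.253% and 6.74% of the 32851 promoters did, respectively. The closest stretches differed at 2 letters in Gli2 and at 3 in Gli3 and Ptch1, and 58.3% of all promoters had a stretch with 2 or fewer mismatches. They are shown for the 2 genes that fell and for the receptor gene that reads out the pathway, 5' to 3' on the strand of the gene, with the closest stretch in capitals. In Ptch1 the stretch lies on the opposite strand, so its capitals are the reverse complement of the letters compared. The Ptch1 entry, at 63565686 to 63565985, lies inside the annotated gene, whose 5' end at 63573598 was not searched. The Gli3 entry, at 15463473 to 15463772, likewise lies inside its annotated gene, whose 5' end at 15463235 was not searched. Each is a description of these letters only.
Gli2, chr1:119053799-119053827, minus strand: ccagggtggtGTCCCCCCAcccccagcct
Gli3, chr13:15463494-15463522, plus strand: ggctcggcgcGTCCCCCCCagcgctcctc
Ptch1, chr13:63565853-63565881, minus strand: ggcgcgagcgGCGGGGGTCtgcgcgcgcc

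Smo, the transducer that cyclopamine inhibits, was the second most abundant member and did not pass the threshold in any step. It lies on chromosome 6 at 29735503 to 29761365. Its levels were 53.3, 47.5 and 44.7 CPM at T0, 34.9, 61.9 and 35.2 CPM at T3, 38.6, 34.0 and 32.1 CPM at T6 and 23.9, 22.5 and 33.2 CPM at T9. From T0 to T9 its log2 fold change was -0.39 (95% interval -0.79 to 0.01, adjusted p = 0.0991), and the T9 plates lay below the T0 plates. How many of all genes had plates that separated between time points was not counted. No conclusion is drawn from such separation, for Smo or for the other members. At T0 the order Gli3, Smo, Gli2, Ptch1, Hhip showed no overlap between neighbouring genes. At T9 the plates of Gli3 and Smo overlapped, as did those of Gli2 and Ptch1.

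**Figure D2:**
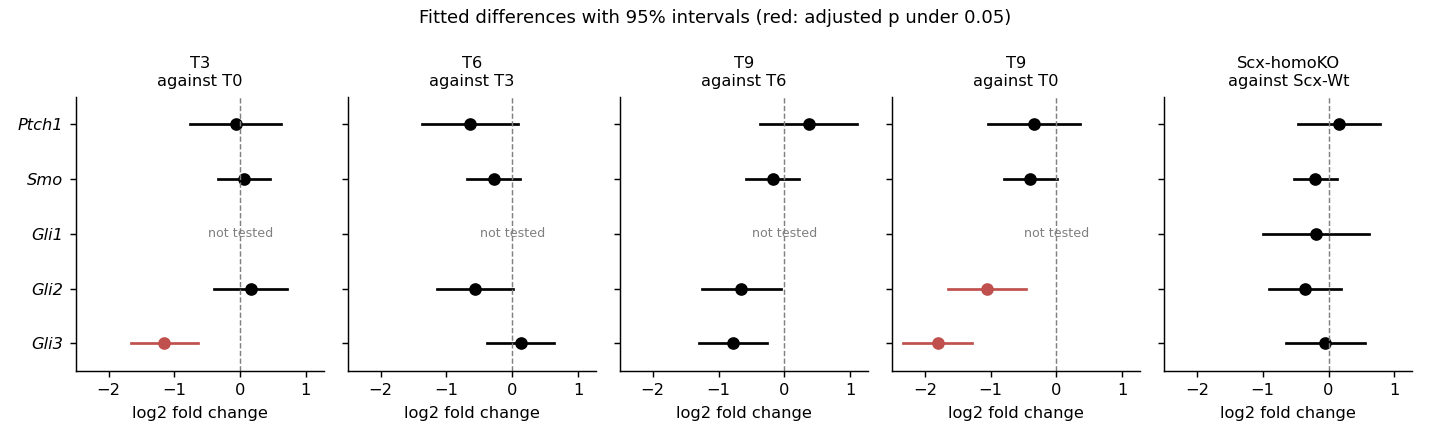
Fitted log2 fold changes (points) with 95% intervals (lines) of the members tested in the 4 time comparisons and between Scx-homoKO and Scx-Wt tendons; red marks an adjusted p under 0.05. Gli3 passed at T3 against T0 (-1.15) and at T9 against T0 (-1.80), Gli2 at T9 against T0 (-1.06), and no member passed in the tendons.

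Ptch1, the receptor and a target of the pathway, did not pass the threshold in whole plates, and its transcripts were unevenly divided among the cells. The gene lies on chromosome 13 at 63508328 to 63573598. Its levels were 16.7, 13.7 and 14.3 CPM at T0, 10.4, 16.2 and 10.1 CPM at T3, 7.42, 6.05 and 9.51 CPM at T6, and 4.07, 12.5 and 8.62 CPM at T9. In these CPM the groups overlapped for T0 and T3 by the second T3 plate only, and the second plate of T9 was the highest of its group. The fits also scale each plate by a TMM factor, which the CPM printed here leave out. With that factor the second T9 plate had 16.2 CPM, above the T0 plates (13.5, 11.7 and 12.3 CPM). The first T3 plate, at 11.8 CPM, then overlapped T0 too. From T0 to T9 the log2 fold change was -0.34 (95% interval -1.05 to 0.36, adjusted p = 0.412), and without the second plate of T9 it was -0.86 (adjusted p = 0.0404).

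Cells with markers of other lineages were then separated. These had UMIs of at least 2 of 6 pluripotent markers or of at least 2 of 5 epithelial markers. Others had UMIs of at least 2 of the parietal endoderm markers Lama1, Gata6, Sox17 and Sox7. They are called cells of other lineages for these markers only, and the 3 sets share cells. Whether they lie outside the tendon lineage was not tested. Gata6 was found in 29.9% of the 4581 cells without Ihh. At T6, cells with parietal endoderm markers were near those with no marker set in Gli3 (107 and 98.7 CPM) and apart in Lrp2 (121 and 0.502 CPM). This separation was chosen after the data were seen. Such cells made up 25.4% to 53.7% of the T0 plates, 2.08% to 3.39% of the T3 plates, 1.30% to 10.99% of the T6 plates and 3.39% to 9.71% of the T9 plates. They were deeper than the others, with medians of 11138 UMIs in cells with pluripotent markers and 5569 in cells without any of the 3 at T3, so that more of their markers could be detected.

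At T0 the level of Ptch1 was alike in both kinds of cell, with 14.5 CPM in 268 cells with pluripotent markers and 15.4 CPM in the 695 cells without markers of other lineages. At T3, 24 cells with pluripotent markers held 29 of the 93 Ptch1 UMIs, which gave 92.9 CPM (72.6 to 125 over the 3 plates). Single cells among them held 8, 5, 4 and 4 of these UMIs. The level was 8.73 CPM (5.87 to 12.6) in the 1119 cells without markers of other lineages. The 9 T3 cells with epithelial markers held 14 UMIs (105 CPM, 0 to 276 over the plates), and the 6 with parietal endoderm markers held 0. At T9, 28 cells with pluripotent markers held 27 of 80 UMIs, with 56.1 CPM (30.6 to 73.6) against 4.78 CPM (2.42 to 7.98) in the 1070 cells with none of the 3 marker sets, while cells with epithelial or parietal endoderm markers had 41.3 and 23.3 CPM. The ranges of cells with pluripotent markers and of cells without any of the markers did not overlap at T3 or T9, and they overlapped at T6, where 9 such cells held 7 UMIs.

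Of the 9 cells with 4 or more Ptch1 UMIs, 5 held UMIs of Sox2, a factor of pluripotent and neural cells, against 8.62% of all cells. They were 4 cells of T3 with 16 to 47 Sox2 UMIs, and 1 cell of T9 with 24. The cell with the most Ptch1 UMIs, 10, was different: it came from T6, had no Sox2 UMI, and held 8 Scx and 483 Col1a1 UMIs. This cell held 0 UMIs of the tendon marker Tnmd and 2 of Gata6. It was deep, with 31687 UMIs against a median of 8794 at T6.

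Without the cells of other lineages, Ptch1 fell from T0 to T9 with a log2 fold change of -1.24 (SE 0.36, adjusted p = 0.0117). Then 3 of the 4 tested members passed, all lower at T9, where 46.7% of genes passed. Gli3 (-1.99) and Gli2 (-1.19) stayed past the threshold, and Smo had -0.46 (adjusted p = 0.0651). In these cells Gli3 went from 266 CPM at T0 to 87.3 CPM at T3, with 98.7 CPM at T6, and was at 49.4 CPM in T9 cells.

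**Figure D3:**
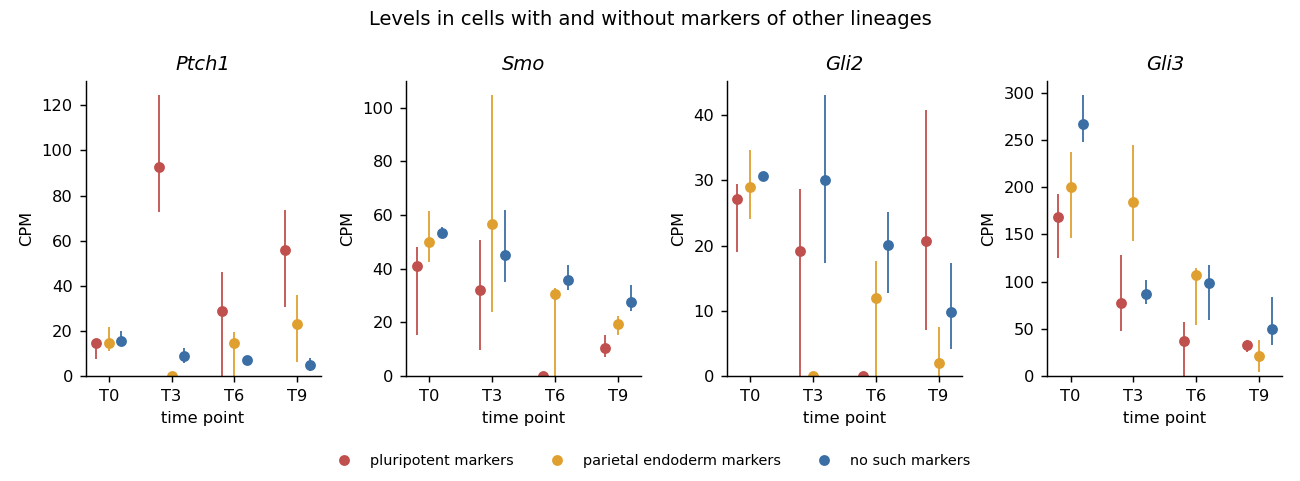
Levels in CPM (linear axes) of Ptch1, Smo, Gli2 and Gli3 at the 4 time points in cells with 2 or more pluripotent markers (red), 2 or more parietal endoderm markers (yellow), or no such markers of other lineages (blue); points are all cells of a time point together and lines run from the lowest to the highest plate. Ptch1 was at 92.9 CPM in cells with pluripotent markers and 8.73 CPM in cells without at T3, and Gli3 was highest in cells without such markers at T0.

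Scx-positive cells (at least 1 Scx UMI) were compared with Scx-negative cells of the same plate, over the 9 plates of T3 to T9. The Scx-positive cells had the higher median depth in every plate. It ranged from 7043 against 7013 UMIs in the third T3 plate to 10081 against 7161 in the first T6 plate. The part of depth and of the cells of other lineages in the differences was not tested. Ptch1 was lower in Scx-positive cells in 9 of 9 plates, with means of 7.94 CPM ± 3.41 (SD, n = 9) against 14.2 CPM ± 6.44. The fitted log2 fold change of -0.78 (SE 0.24) did not pass the threshold (adjusted p = 0.0987), and without cells of other lineages it was 0 (adjusted p = 0.998). Gli3 had a log2 fold change of 0.23 (95% interval -0.03 to 0.49), Gli2 0.23 (-0.26 to 0.73) and Smo 0.14 (-0.16 to 0.43). None of the 4 tested members passed, where 2.46% of genes did.

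Cells were also divided by Sox9, the factor of chondrocyte precursors and of the common progenitors of tendon and cartilage. None of the 5 tested members passed between Sox9-positive and Sox9-negative cells, where 1.01% of genes did. Ptch1 had means of 10.9 CPM ± 2.97 (SD, n = 9) in Sox9-positive and 8.44 CPM ± 4.46 in Sox9-negative cells, with a log2 fold change of 0.46 (95% interval -0.05 to 0.96). Gli3 had -0.17 (-0.36 to 0.03). Ihh had 24 UMIs in Sox9-positive and 7 in Sox9-negative cells, and did not pass (adjusted p = 0.376); 10 of its UMIs were in 1 cell, and most class sums held 0 or 1.

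Gli1, the most direct readout of Hedgehog activity, was close to the limit of detection at all time points. It lies on chromosome 10 at 127329882 to 127341974. At T0 the 3 plates had 3, 4 and 0 Gli1 UMIs, the T3 plates had 0, 1 and 0, the T6 plates 3, 1 and 3, and the T9 plates 3, 2 and 4. Over all UMIs of a time point the CPM was 0.552 (exact 95% Poisson interval 0.222 to 1.14) at T0, 0.133 (0.00337 to 0.742) at T3, 0.622 (0.25 to 1.28) at T6 and 0.917 (0.419 to 1.74) at T9. These intervals overlap for all pairs of time points and cover counting error only. The 24 UMIs were in 22 cells, and no cell held more than 2. Gli1 did not pass the filter on low counts, and a comparison of Gli1-positive cells could not be run.

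Hhip, which binds the ligands at the cell surface, was likewise rare. It lies on chromosome 8 at 79965851 to 80058006. The plates held 12, 13 and 8 UMIs at T0, 1, 0 and 0 at T3, 1, 0 and 17 at T6, and 2, 0 and 3 at T9. All T0 plates exceeded all T3 plates, and the third plate of T6 stood apart. Hhip did not pass the filter; when no filter was applied, it passed from T0 to T3 with a fitted log2 fold change of -3.76 (adjusted p = 0.0179, with 16.4% of genes called), which depends on the small value added to counts of 0.

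The cells with Hhip differed between time points. At T0, 19 of the 33 UMIs were in cells with pluripotent markers (4.68 CPM, against 1.27 CPM in cells without markers of other lineages). At T6, all 18 UMIs were in cells without markers of other lineages, and 10 of them were in a single cell with 25 UMIs of the tendon marker Tnmd, 8 of Scx and 510 of Col1a1. A second T6 cell with 3 Hhip UMIs was the cell that held 10 UMIs of Ptch1.

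Ihh, the ligand of growth plate cartilage and of endoderm, was found in 13 of the 4594 cells. It lies on chromosome 1 at 74945315 to 74951672. Its UMIs in the 3 plates were 0, 0 and 3 at T0, 2, 0 and 0 at T3, 1, 11 and 9 at T6, and 3, 5 and 0 at T9. Of the 34 UMIs, 10 were in a single T6 cell with 13 Lama1 and 11 Gata6 UMIs. Sox17 was found in 46.2% of the 13 cells and in 1.11% of the others, Krt18 in 69.2% and 9.14%, and Lama1 in 61.5% and 9.39%. The cells with Ihh were deeper, with a median of 18527 UMIs against 8003 for the others, and no doublets were removed beyond the gate of the sort.

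At T6 and T9 together, 7 of the 10 cells with Ihh held at least 2 of the 4 parietal endoderm markers (4 of 7 and 3 of 3), against 5.25% and 3.67% of the other cells. The other 3 cells had 1 Ihh UMI each and 3 to 23 UMIs of Scx. Cells with epithelial markers held 18 of the 21 Ihh UMIs at T6 and all 8 at T9, as did cells with parietal endoderm markers. Of the 8 chondrocyte markers, none was found in any of the 13 cells. They were rare in the cells without Ihh too, from 0.0218% (Matn1) to 5.46% (Hapln1), so no conclusion is drawn from their absence.

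The other genes of the pathway were given by a list of 61 genes ordered by role, of which 59 were in the single-cell table. From T0 to T3, 16 of 49 tested genes passed, 10 higher and 6 lower, with a median log2 fold change of -0.09 against 0.01 for all genes. From T0 to T9, 22 of 49 passed, 14 higher and 8 lower, with a median of 0.15 against -0.02 for all genes. The shares are close to the 33.2% and 45.2% of all genes that passed.

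Among the co-receptors that present the ligand to Ptch1, all 5 tested genes passed from T0 to T9, where 45.2% of all genes passed, and they are named for that count: Boc, Cdon, Gas1 and Lrp2 were higher, and Gpc3, which binds Hedgehog and competes with Ptch1, was lower (log2 fold change -0.58). Gas1 was at 162, 195 and 224 CPM at T0 and 431, 485 and 456 CPM at T3, with a log2 fold change of 1.47 (SE 0.18, adjusted p = 3.14e-05), and it was 1.35 higher at T9 than at T0. Boc was at 39.5, 30.1 and 52.5 CPM at T0, 65.6, 87.0 and 104 CPM at T3, and 84.5, 70.0 and 176 CPM at T9. Its log2 fold change was 1.31 to T3 and 1.86 to T9 (SE 0.26, adjusted p = 5.69e-05).

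Cdon rose later, from T3 to T6, with a log2 fold change of 1.19 (SE 0.29, adjusted p = 0.0344). This call was lost in the fit to the 6 plates compared (adjusted p = 0.121) and without the first or second plate of T3 or the first or the third plate of T6 (log2 fold change 0.93 to 1.17, adjusted p 0.075 to 0.16). In cells without markers of other lineages, Cdon was at 30.7 CPM at T3 and 67.7 CPM at T6, and Gas1 rose from 223 CPM at T0 to 473 CPM at T3. Lrp2 also passed from T3 to T6 (log2 fold change 3.59, adjusted p = 0.00716), but few cells held its 136 UMIs at T6. Of these, 131 were in the 64 cells with parietal endoderm markers (121 CPM). The 18 cells with epithelial markers held 123 (326 CPM) and the 9 with pluripotent markers 104 (426 CPM), as the sets share cells. In cells without markers of other lineages Lrp2 was at 0.502 CPM. From T0 to T9 its log2 fold change was 1.45 (adjusted p = 0.0349), a call lost without the second plate of T9 (0.71), with the library covariate (0.76, adjusted p = 0.253) and without any 1 plate of T0 (adjusted p 0.0577 to 0.106). In cells without markers of other lineages Lrp2 was at 0.796 CPM at T0 and 0.911 CPM at T9. Lrp2 and Cdon were the only genes of the list that passed at this step.

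Among the regulators between Smo and the Gli proteins, 9 of 32 tested genes passed from T0 to T9, 6 higher and 3 lower, a smaller share than the 45.2% of all genes. Sufu, which holds the Gli proteins in the cytoplasm, fell by T3 (log2 fold change -1.33, SE 0.21, adjusted p = 0.00028) and was -1.23 lower at T9 than at T0. Kif7, a kinesin of the cilium tip that controls Gli processing, was lower at T3 (-1.13, adjusted p = 0.0363), a call lost with the library covariate (adjusted p = 0.0546), with the replicate number as a block (0.0633), in thinned cells (0.102), and without any 1 plate of T0 or the first or the third plate of T3 (0.0631 to 0.113). Dyrk2, a kinase that phosphorylates Gli2 and Gli3, rose (1.43 at T3, adjusted p = 8.72e-05). Arrb1 fell to T9 (-1.78, adjusted p = 0.0324), a call lost with the library covariate (-0.93), with the replicate number as a block (adjusted p = 0.0521), and without any 1 plate of T0 or the first or second plate of T9 (adjusted p 0.0601 to 0.118).

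Ligand release factors differed in direction, with Disp1 higher at T9 (log2 fold change 1.74, adjusted p = 0.00223) and the secreted Scube1 (-2.74, adjusted p = 0.000276) and Scube3 (-1.49, adjusted p = 0.00412) lower. The mesenchymal genes that Hedgehog activates in some embryonic tissues also went both ways. Osr1 rose from 1.89 CPM at T0 to 39.4 at T3 and 77.9 at T9 over all UMIs of a time point, with log2 fold changes of 4.504 and 5.79 (adjusted p = 3.00e-08 for T9). Foxf2 rose from 7 UMIs at T0 to 51 at T9 (3.57, adjusted p = 0.000555). Ccnd1, a cyclin of G1 phase, fell (-1.85 at T3 and -2.83 at T9, adjusted p = 3.19e-05), and Mycn fell at T3 (-1.78, adjusted p = 0.00527). These genes respond to several other pathways too.

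**Figure D4:**
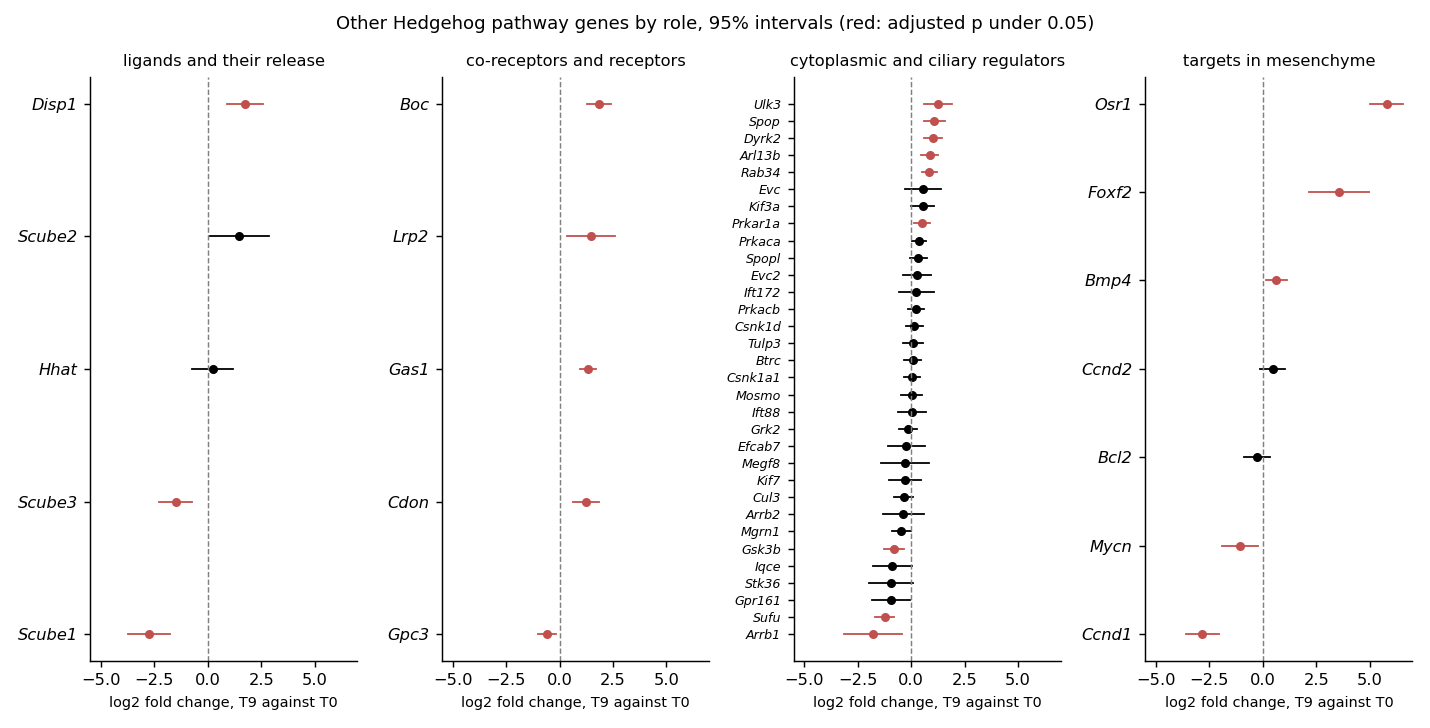
Log2 fold changes from T0 to T9 (points) with 95% intervals (lines) of the 49 tested pathway genes outside the 7 members, by role; red marks an adjusted p under 0.05. Boc, Cdon, Gas1 and Lrp2 lay above 0 and Gpc3 below, Osr1 (5.79) was farthest to the right and Ccnd1 (-2.83) farthest to the left.

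In the Scx comparison of cells, Osr1 was the only gene of the list that passed (log2 fold change -0.80 in Scx-positive cells, adjusted p = 0.0026, and -0.96 without cells of other lineages). It was also lower in Sox9-positive cells (-0.68, adjusted p = 0.0127), a call lost in thinned cells (-0.51, adjusted p = 0.335), without the plate as a block, in the T3 or T9 plates alone, and without the first plate (adjusted p = 0.0746) or the third plate (0.0522) of T6. The cyclin gene Ccnd2 passed in the same comparison (-0.28, adjusted p = 0.0397), and its call was lost in 11 alternatives, among them thinned cells (-0.08, adjusted p = 0.909), each time point alone and 6 of the 9 fits that left out a plate (adjusted p 0.0616 to 0.152). The plates differed in this for Osr1, which had 0.01 in the T3 plates alone between Scx-positive and Scx-negative cells.

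For each tested member, the 3 genes with the most similar log2 CPM over the 12 plates were sought, as a description in which the plates share time points and library kinds. Gli3 was closest to Dnmt1 (Pearson r = 0.984), Ccnjl (0.982) and Casp8ap2 (0.982). Gli2 was closest to Por (0.955), Knl1 (0.952) and Slitrk5 (0.950), Smo to Wbp1 (0.879), Hmgb1 (0.846) and Bcl2l12 (0.845), and Ptch1 to Trp53rkb (0.916), Pim2 (0.816) and Rpe (0.811). Gli2 had r = 0.700 with Gli3 and 0.695 with Smo, and Ptch1 had 0.430 or less with each of the other 3.

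In the Achilles tendon, no member passed the threshold between Scx-homoKO and Scx-Wt. The targeted gene Scx had 1151 and 996 counts in the Scx-Wt libraries and 287 and 296 in the Scx-homoKO libraries, so it was lower but not absent. The 8 tenocyte markers summed to 152281 to 165311 CPM in Scx-Wt and to 72056 to 83068 CPM in Scx-homoKO. In such tissue, fewer cells of a type and less RNA per cell cannot be told apart.

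Of the 7 members, 5 passed the filter and none of these passed the test, where 3.84% of genes did. Smo had 987 and 1042 counts in Scx-Wt and 956 and 816 in Scx-homoKO, with a log2 fold change of -0.20 (95% interval -0.52 to 0.13). Gli2 had 180 and 180 counts against 137 and 143 (-0.36, -0.91 to 0.19). Both Scx-homoKO libraries were lower for these 2 genes, and neither gene passed (adjusted p = 0.535 for Smo and 0.502 for Gli2). The share of all genes whose groups separated in this way was not counted, so no conclusion is drawn from it. Gli3 had 134 and 185 counts against 150 and 158 (-0.05, -0.65 to 0.55).

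The target genes Gli1 and Ptch1 differed most between the 2 Scx-homoKO mice. Gli1 had 167 and 164 counts in Scx-Wt and 211 and 85 in Scx-homoKO, and Ptch1 had 128 and 159 against 196 and 127. The first Scx-homoKO library was the highest of the 4 and the second the lowest for both genes in CPM. For Gli1 the log2 fold change was -0.19 (95% interval -0.99 to 0.62), -0.89 without the first Scx-homoKO library (adjusted p = 0.196) and 0.28 without the second (adjusted p = 0.72).

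The ligand Dhh, which Schwann cells secrete in peripheral nerve, was spread in the same way. It had 75 and 68 counts in Scx-Wt and 253 and 34 in Scx-homoKO. Sox10, a transcription factor of Schwann cells, had 65 and 72 counts in Scx-Wt and 416 and 15 in Scx-homoKO. The part of nerve content in the values of Gli1, Ptch1 and Dhh was not tested. Dhh passed only without the second Scx-homoKO library (log2 fold change 1.75, adjusted p = 0.00567) and had -0.9998 without the first.

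Ihh had 5 and 3 counts in Scx-Wt and 2 and 0 in Scx-homoKO, Hhip had 23 and 4 against 4 and 3, and Shh had 0 in all 4 libraries. Neither Ihh nor Hhip passed the filter. The cartilage genes Col2a1 (7361 and 7314 against 290 and 145 counts) and Acan (1165 and 1271 against 200 and 117) were lower in Scx-homoKO. Matn3, Hapln1 and Col11a2 were lower too. The other chondrocyte markers were not: Col9a1 was higher (16 and 13 against 20 and 21 counts), Col9a3 had 29 and 13 against 76 and 12, and Matn1 had 0 in all 4 libraries. The 4 markers of prehypertrophic and hypertrophic cartilage did not go one way. Ibsp had 0 counts and Mmp13 0 to 3 in all 4 libraries, Pth1r had 460 and 524 counts in Scx-Wt against 372 and 289 in Scx-homoKO, and Col10a1 had 3 and 0 against 14 and 13. Muscle markers were higher in Scx-homoKO (72874 to 76490 CPM against 30857 to 56196).

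**Figure D5:**
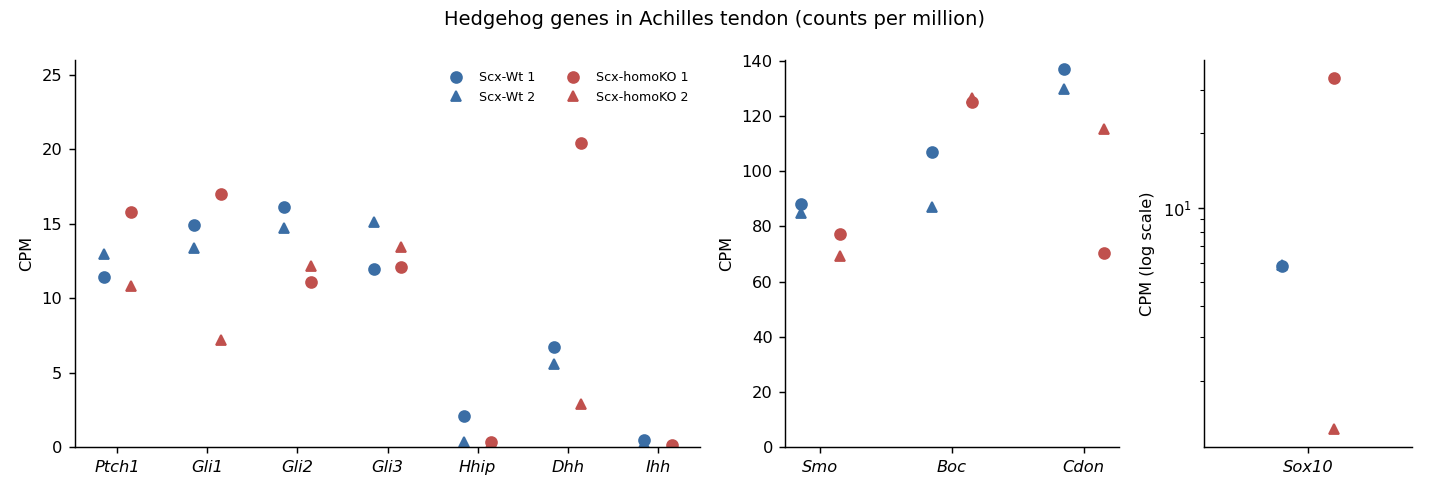
CPM in Achilles tendon for Hedgehog genes (left and middle, linear axes) and for the Schwann cell factor Sox10 (right, log axis); each point is 1 mouse, blue for Scx-Wt and red for Scx-homoKO, with circles for the first and triangles for the second mouse. The first Scx-homoKO mouse was the highest for Dhh (20.4 CPM), Gli1 (17.0 CPM) and Sox10 (33.6 CPM), and the second the lowest for each.

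Divided by exon length, Smo stood highest among the members in Scx-Wt, at 15.7 and 15.1 CPM per kb. Gli1 followed with 2.99 and 2.68, Gli2 with 2.34 and 2.14, Gli3 with 1.25 and 1.57 and Ptch1 with 0.807 and 0.914 CPM per kb. In Scx-homoKO the levels of Gli1, 3.41 and 1.44 CPM per kb, spread across those of Gli2, 1.61 and 1.77. The bulk libraries cover whole transcripts and the plates count 3' ends, so the values of tendon and of cultured cells are given side by side and were not tested: Gli1 had 13.4 to 14.9 CPM in Scx-Wt tendon and 0.642 to 1.33 CPM in the T9 plates, and Gli3 had 11.98 to 15.1 and 32.0 to 81.6 CPM.

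Of the 61 other pathway genes, 53 were tested in the tendon and none passed, where 3.84% of all genes did, with a median log2 fold change of 0.04 against 0.00 for all genes. At an unadjusted level Boc was the closest of the co-receptors, with 1198 and 1066 counts in Scx-Wt and 1552 and 1491 in Scx-homoKO (log2 fold change 0.43, 95% interval 0.09 to 0.76, adjusted p = 0.174).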

How the data were processed

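Single cells were sorted into plates and made into CEL-Seq2 libraries; per the labels and the study's methods, the authors aligned reads with HISAT2 2.2.1 to GRCm38, assigned them with featureCounts and counted UMIs with UMI-tools 1.0.1. The authors deposited raw UMI counts per gene and well. For bulk tendon, the authors used HISAT2 2.0.4 and featureCounts 1.5.0 and deposited raw read counts; the strand setting is not given in the sources used here. The release of the annotation is not given there either.

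Wells with at least 200 genes (4594 of 4608) were summed per plate; all plates share the same 384 barcodes by design. Entries naming no gene (3, with 0.0642% of UMIs) were left out, some results are not reported here, and 101 single-cell and 505 bulk identifiers had no symbol. edgeR 4.0.16 in R 4.3.3 (quasi-likelihood test, TMM, filterByExpr, Benjamini-Hochberg adjustment over all tested genes, threshold 0.05) was fitted to the 12 plates together, to the 4 tendons, and to class sums with the plate as a block. P-values measure the spread between plates, which the labels do not tie to separate cultures, or between 2 mice. DESeq2 1.42.0 and other settings were alternatives. The steps were tested on simulated data. Gene positions come from GENCODE M21. The members and lists were chosen with earlier results of these data known. Named are the members, and, per comparison and direction, up to 5 called pathway genes with the largest changes whose groups did not overlap.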

Additional observations from a re-analysis of the deposited data

Results flagged for a closer look

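Gli2 in Sox9-positive against Sox9-negative cells went opposite ways in the T3 and T6 plates. At T3 the Sox9-positive cells were higher in 3 of 3 plates, by 4.20 CPM on average, and at T6 they were lower in 3 of 3 plates, by an average difference of -5.82 CPM. The difference between the time points was not tested, and the plates of T3 gave only 7 to 40 Gli2 UMIs in Sox9-positive cells.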

How the results depend on the processing

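Gli1, Hhip and Ihh had few counts and did not pass the filter in the reported time comparisons. Low levels and limited depth were not told apart. Hhip was tested and not called with the replicate block, with the library covariate and without some plates. With 3 plates or 2 mice per group, a p above the threshold does not show that levels did not differ. The comparison of Gli1-positive cells was not run, because no plate had 10 such cells. Over 1036 results under alternatives, 148 counts of calls were within 1.5 times the reported count and 24 were not, and of the values of single genes 781 kept their direction and side of the threshold, 44 lost a call, 7 gained one, 5 moved by more than their spread and 27 changed direction. The cause of these changes was not tested.

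Without a filter on low counts, members called were 2 from T0 to T3 and 1 from T6 to T9, and called genes of the pathway list were 5 from T3 to T6, 3 from T6 to T9 and 2 in the tendons. With the kind of library as a covariate, 1 member was called from T3 to T6 and 1 from T6 to T9, and the list gave 7 and 3. DESeq2 gave 4 and 2 for the list at these steps. Fitted to the 6 plates compared, the list gave 1 call from T3 to T6. From T6 to T9 it gave 1 in cells thinned to 3000 UMIs and 1 without cells of other lineages. Leaving out 1 library at a time gave 0 to 1 members from T6 to T9 and 2 to 3 from T0 to T9, and for the list 11 to 18 from T0 to T3, 1 to 4 from T3 to T6, 0 to 4 from T6 to T9, 16 to 22 from T0 to T9 and 0 to 3 in the tendons.

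Some log2 fold changes that had not passed the threshold, and that of Osr1 in Scx-positive cells, changed direction. From T0 to T3 the values were 0.36 for Ptch1 and -0.04 for Smo in thinned cells, -0.01 for Smo without a filter and -0.06 for Smo without cells of other lineages. From T3 to T6 Gli3 had -0.04 with the library covariate, and from T6 to T9 Ptch1 had -0.27 without cells of other lineages. For Scx-positive cells, Ptch1 had 0 without cells of other lineages and Smo -0.07 in thinned cells, and in the T3 plates alone Gli2 had -0.06, Gli3 -0.09, Smo -0.15 and Osr1 0.01. For Sox9-positive cells, Gli2 had 0.29 in thinned cells, 0.22 in T3 plates alone and 0.06 in T9 plates alone, and Gli3 0.13 in thinned cells. Leaving out 1 library at a time gave -0.18 to 0.01 for Ptch1, -0.06 to 0.34 for Gli2 and -0.11 to 0.16 for Smo from T0 to T3, -0.01 to 0.29 for Gli3 from T3 to T6, -0.14 to 0.66 for Ptch1 from T6 to T9, -0.20 to 0.01 for Gli2 in Sox9-positive cells, and in the tendons -0.10 to 0.38 for Ptch1, -0.89 to 0.28 for Gli1 and -0.25 to 0.19 for Gli3.

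Correlations of deviations between plates of the same number ran from -0.563 to 0.515. The lowest was between plates of different kinds of library and the highest between plates of the same kind. The second T3 plate and the first T6 plate, which differ in number but share the kind of library, had 0.444. These correlations therefore cannot show whether the plate numbers paired the samples. For mice the correlation was 0.0715, but with 2 mice per group this single value cannot show whether they were paired. With the replicate number as a block, 1 member was called from T0 to T3 and 2 from T0 to T9, as without it. In the tendons 1 gene of the pathway list was called with the block, Scube2 (log2 fold change -0.88, adjusted p = 0.024). Of all 14602 genes tested there, 541 were called higher and 567 lower with the block, against 258 and 302 without it.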
